A study of Mus musculus with 8 samples.

Results

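The genes described here are 9 cyclic nucleotide phosphodiesterases, Pde1a, Pde1b, Pde2a, Pde4a, Pde4b, Pde4d, Pde7b, Pde8b and Pde10a. They were taken by gene name, 1 row each, from the 54532 genes of the deposited table of raw counts. No cut-off on a measured value was applied, but the choice was made with earlier results of these data known. The table holds cortical RNA from 8 mice that were 8 mo old, 1 library per mouse. Of these, 4 were PS19 mice, whose human tau transgene bears the P301S mutation and is driven by the mouse prion promoter. The other 4 were Adrb1+/m;PS19 mice, which carry the same transgene and, in addition, 1 copy of the Adrb1-A187V knock-in allele of the β1-adrenergic receptor gene. The tau transgene was therefore present in every mouse, and no mouse without it was compared here.

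Cyclic AMP and cyclic GMP are made by adenylyl and guanylyl cyclases and are broken down by phosphodiesterases, so the amount of a phosphodiesterase sets how long and how far the signal of a receptor lasts. The β1-adrenergic receptor acts through adenylyl cyclase and cyclic AMP. Pde1 enzymes are switched on by calcium and calmodulin and cleave both nucleotides, Pde2a is stimulated by cyclic GMP, Pde4, Pde7 and Pde8 enzymes act on cyclic AMP, and Pde10a cleaves both nucleotides and is known for its very high level in the projection neurons of the striatum, which lies under the cortex.

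Counts of a mouse summed to between 14653222 and 21223754, and replicate mice were further apart than sampling noise allows (chi-square per degree of freedom 4.83 to 9.94). All 9 genes passed edgeR's filter on low counts, which kept 17195 genes. The labels name no litter, batch or date. Each library is a separate mouse, so the spread between replicates includes that between animals and dissections.

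Promoter sequence is shown first for the 3 genes whose levels moved most from mouse to mouse together with markers of the striatum. Each line gives the 250 bases before a transcription start listed by RefSeq on GRCm38.p6, 5′ to 3′ on the strand of the gene, at a start that GENCODE lists too. RefSeq lists 2 starts for Pde10a, 3 for Pde1b and 1 for Pde7b, and counts per gene do not tell which of them was used in the cortex. The windows are chr17:8849735-8849984 on the plus strand for Pde10a, chr15:103502784-103503033 on the plus strand for Pde1b and chr10:20548329-20548578 on the minus strand for Pde7b.
Pde10a: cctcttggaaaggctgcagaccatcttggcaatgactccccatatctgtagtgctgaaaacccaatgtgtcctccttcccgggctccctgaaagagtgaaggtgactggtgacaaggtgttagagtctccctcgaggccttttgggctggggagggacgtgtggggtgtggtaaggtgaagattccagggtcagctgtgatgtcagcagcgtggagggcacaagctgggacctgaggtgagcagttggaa
Pde1b: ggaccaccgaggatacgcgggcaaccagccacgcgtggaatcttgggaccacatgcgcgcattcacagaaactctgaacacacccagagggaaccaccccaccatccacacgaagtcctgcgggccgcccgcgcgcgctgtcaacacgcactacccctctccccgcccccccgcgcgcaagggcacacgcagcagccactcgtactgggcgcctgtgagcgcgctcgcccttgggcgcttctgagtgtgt
Pde7b: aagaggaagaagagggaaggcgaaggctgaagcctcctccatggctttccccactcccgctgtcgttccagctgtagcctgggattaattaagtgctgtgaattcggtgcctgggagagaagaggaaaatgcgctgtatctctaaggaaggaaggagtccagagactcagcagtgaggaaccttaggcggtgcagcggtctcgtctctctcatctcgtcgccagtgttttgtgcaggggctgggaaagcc
Their GC content was 56.0% for Pde10a, 67.2% for Pde1b and 55.2% for Pde7b, against a median of 52.4% over the 32851 promoters in the RefSeq table. The full cyclic AMP response element, TGACGTCA, was in none of the 28 promoters listed for the 9 genes and in 1.55% of all promoters, searched on both strands.

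The second pair of promoters is shown because the shorter core of that element, TGACG, lies in them. It was in 3 of the 28 promoters of the 9 genes, or 10.7%, against 17.8% of all promoters, and those 3 belonged to Pde1a, Pde4a and Pde4b. A promoter that holds the full element also counts as holding this one. Capitals mark this core, which reads CGTCA here because it lies on the opposite strand. The windows are chr9:21183851-21184100 on the plus strand for Pde4a and chr4:102421305-102421554 on the plus strand for Pde4b.
Pde4a: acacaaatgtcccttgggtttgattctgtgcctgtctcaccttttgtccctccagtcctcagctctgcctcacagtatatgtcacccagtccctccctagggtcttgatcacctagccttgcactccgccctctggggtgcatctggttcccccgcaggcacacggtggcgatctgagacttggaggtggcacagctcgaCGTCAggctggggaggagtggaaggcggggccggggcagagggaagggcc
Pde4b: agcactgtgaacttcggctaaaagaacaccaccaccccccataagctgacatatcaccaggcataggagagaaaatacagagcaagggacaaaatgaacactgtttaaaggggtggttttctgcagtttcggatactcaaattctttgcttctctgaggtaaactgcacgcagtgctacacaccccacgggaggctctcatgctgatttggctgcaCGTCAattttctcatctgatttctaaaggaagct
The core began 50 bases before the RefSeq start in Pde4a and 34 bases before it in Pde4b. GENCODE lists the same start for Pde4a, and its nearest start for Pde4b lies 37 bases away, so the distance for Pde4b depends on the annotation. A TATA box, TATAAA, was in 7.14% of the 28 promoters and 12.4% of all promoters, and a CCAAT box in 25.0% and 33.8%. Windows of the same gene can overlap, as those of Pde8b do, so the 28 are not all separate sequences. Of the 5 promoters printed, that of Pde10a holds a CCAAT box.

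To set genes side by side, counts scaled to the library size with TMM normalization factors (CPM) were divided by the gene's length in kb. On this scale Pde1b was the highest of the 9 in every mouse, at a mean of 59.6 CPM per kb and between 45.7 and 80.5. Pde1a followed at 37.4, between 33.9 and 40.9, and Pde10a at 28.7, between 20.3 and 39.3. The ranges of Pde1a and Pde10a overlapped, so the order of these levels was not fixed from mouse to mouse. Pde8b had 17.2, Pde4a 14.2 and Pde4b 12.1 CPM per kb. Pde8b was above Pde4a in every mouse, since its lowest value was 15.7 and the highest of Pde4a was 15.0, and Pde4a was above Pde4b in every mouse although their ranges over the mice overlapped. Pde7b had 6.02, Pde4d 3.76 and Pde2a 1.17 CPM per kb.

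**Figure D1:**
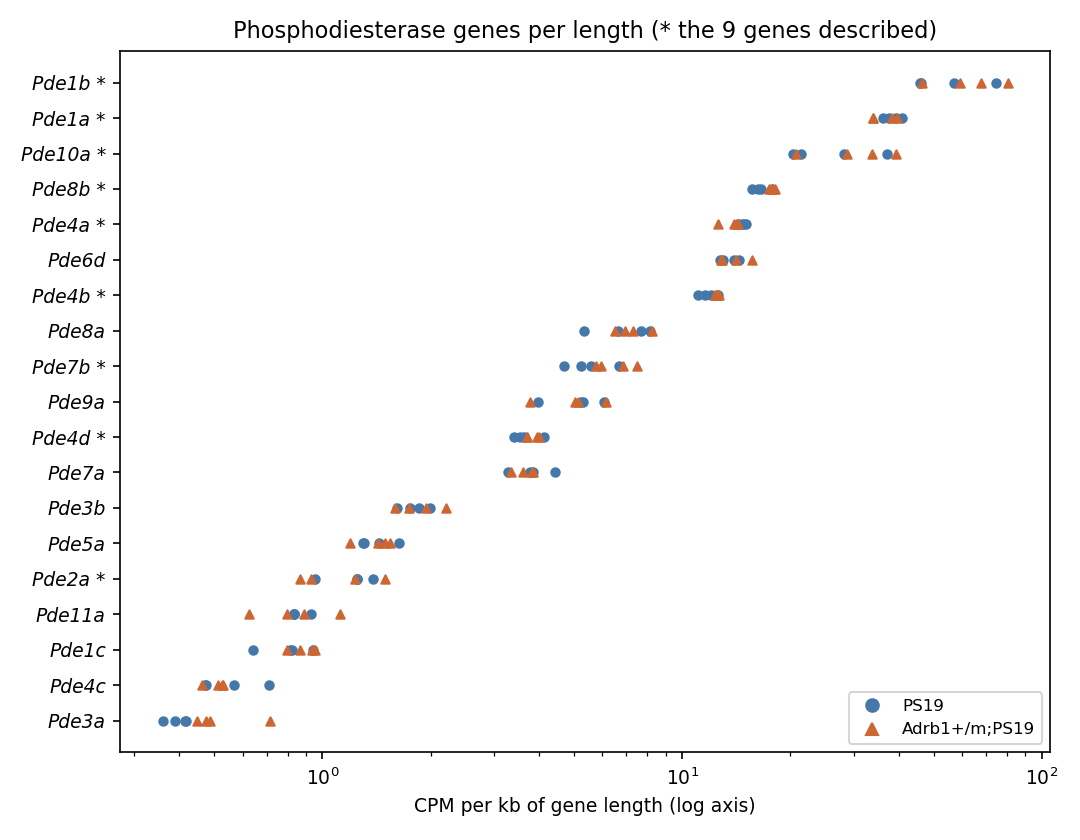
CPM per kb of gene length, on a log axis, for the 19 phosphodiesterase genes that passed the count filter, with 1 point per mouse (circles PS19, triangles Adrb1+/m;PS19). Pde1b, Pde1a and Pde10a lie above the others, and the points of Pde1b and Pde10a spread over a wider range than those of Pde8b, Pde4a or Pde4b.

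The level of Pde2a is uncertain. Of its 6149 exonic bases in the GENCODE annotation, 3955, or 64.3%, are shared with Gm45837, a gene on the same strand that had 0 to 2 counts in a mouse. Reads that fall in both genes may have been left uncounted, depending on the counting settings, which are not named. Had such reads been counted for both, Gm45837 would hold them too, yet Pde2a had 95 to 158 counts in a mouse. The value of Pde2a per kb was divided by all 6149 bases, the shared ones included. Its place as the lowest of the 9 genes may therefore come from the counting, which was not tested. Pde8b shares 7.6% of its exonic bases with Gm48420 on the opposite strand, and the other 7 genes share none with another gene.

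The question put to the genotypes was whether these genes differ when the mutant receptor allele is present. By edgeR's quasi-likelihood test, 1 of the 9 genes was higher in Adrb1+/m;PS19 than in PS19 mice at an unadjusted p under 0.05, where 1.42% of all genes tested were, and 0 were lower, where 1.37% of all genes were. In either direction the rule called 481 genes, or 2.80% of those tested. None of the 9 had an adjusted p under 0.05 by edgeR, by DESeq2 or by limma-voom, and the share of all genes that did was 0%. The log2 fold changes, given throughout as Adrb1+/m;PS19 minus PS19, ran from -0.10 to 0.23 with a median of 0.08, against 0.0005 over all genes. They were positive for 6 genes and negative for Pde1a, Pde2a and Pde4a.

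**Figure D2:**
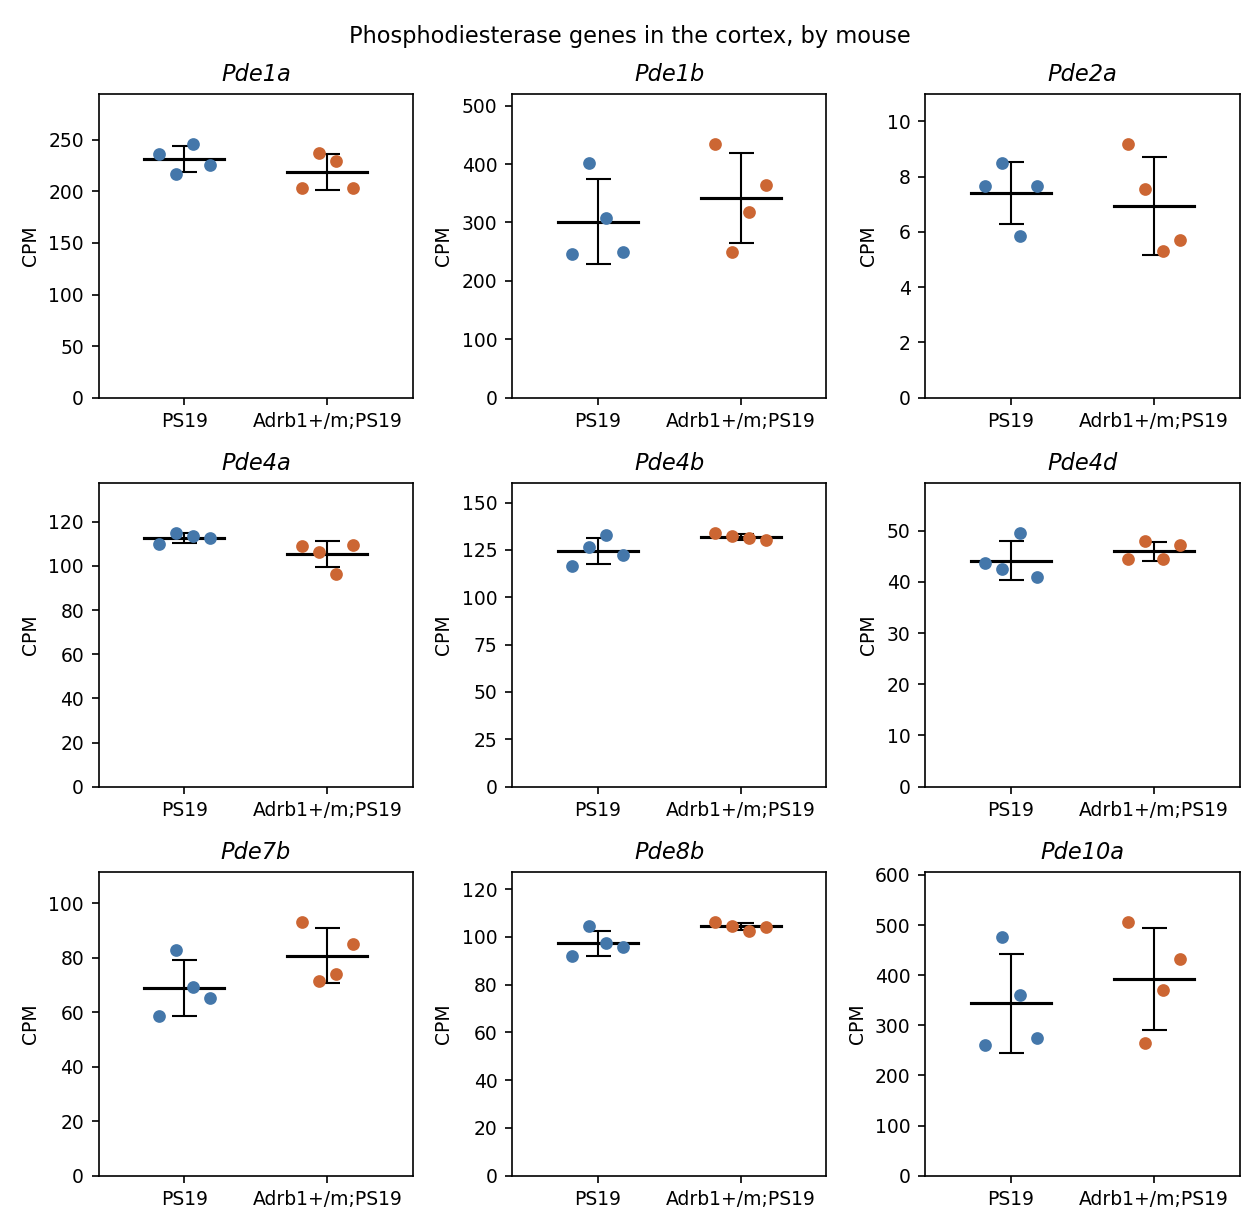
CPM of the 9 genes by genotype, each point 1 mouse, with the mean (thick line) and SD (error bar) of 4 mice and every vertical axis starting at 0. The genotypes overlap for every gene except Pde4a, whose 4 PS19 mice lie at 109.7 to 114.8 CPM and 4 Adrb1+/m;PS19 mice at 96.5 to 109.4, and the points of Pde1b, Pde7b and Pde10a spread more within a genotype than those of Pde4b or Pde8b.

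Pde7b, a cyclic AMP-specific enzyme (chromosome 10 of GRCm38, 20398004 to 20725078), was the gene called. Its levels were 58.5, 82.9, 69.4 and 65.1 CPM in PS19 mice m677, m668, m665 and m659, and 93.1, 71.5, 73.9 and 85.0 CPM in Adrb1+/m;PS19 mice m671, m661, m660 and m658. The groups overlapped, because PS19 mouse m668 lay above 2 of the Adrb1+/m;PS19 mice. The means were 69.0 ± 10.3 and 80.9 ± 10.04 CPM (SD, n = 4 mice each), a log2 fold change of 0.23 ± 0.103 (SE) and a 95% interval of 0.01 to 0.45 (edgeR unadjusted p = 0.0440, adjusted p = 0.9996). DESeq2 gave unadjusted p = 0.0352 and limma-voom unadjusted p = 0.0409. The gene was no longer called when mouse m677, m665, m659, m671 or m658 was left out, and over the 8 omissions of 1 mouse the log2 fold change lay between 0.15 and 0.33.

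Pde10a (chromosome 17, 8525372 to 8986648) and Pde1b (chromosome 15, 103503034 to 103530052) varied most among the well-counted genes. Pde10a had 261.1, 477.0, 361.2 and 274.4 CPM in PS19 mice m677, m668, m665 and m659, and 505.6, 265.4, 369.4 and 432.1 CPM in Adrb1+/m;PS19 mice m671, m661, m660 and m658. Pde1b had 246.9, 401.6, 308.3 and 249.5 CPM, and 434.1, 250.0, 318.7 and 364.8 CPM, in the same order. Both genotypes held low, middle and high mice for both genes, with m671 and m668 highest and m677, m661 and m659 lowest. The log2 fold change was 0.19 ± 0.192 (SE) for Pde10a (edgeR unadjusted p = 0.328) and 0.18 ± 0.163 (SE) for Pde1b (unadjusted p = 0.285), and the 95% intervals, -0.22 to 0.61 and -0.17 to 0.53, leave room for a change in either direction. These values rested on single mice. Without m668, the log2 fold change was 0.39 for Pde10a (unadjusted p = 0.0383) and 0.35 for Pde1b (unadjusted p = 0.0303), and Pde8b at 0.14 (unadjusted p = 0.0262) was called too, so that 4 of the 9 genes were called higher in place of 1, where 1.93% of all genes were without this mouse and 1.42% with it. Without mouse m671 the same values were 0.05 for Pde10a and 0.045 for Pde1b.

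The Pde4 genes encode the cyclic AMP-specific enzymes that rolipram inhibits and that bind β-arrestins and A-kinase anchoring proteins. Pde4a (chromosome 9, 21165714 to 21213248) had 109.7, 114.8, 113.6 and 112.6 CPM in PS19 mice and 109.0, 106.4, 96.5 and 109.4 CPM in Adrb1+/m;PS19 mice, in the order of mice given above. It was the 1 gene of the 9 whose genotypes did not overlap, where 2.02% of all genes tested did not, and the gap between m677 and m658 was 109.7 to 109.4 CPM. The log2 fold change was -0.10 ± 0.054 (SE; unadjusted p = 0.0944), and under the normalization of the table without a count filter the groups overlapped. Mouse m660 was the lowest at 96.5 CPM, and without it the log2 fold change was -0.06 (edgeR unadjusted p = 0.304).

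Pde4b (chromosome 4, 102087543 to 102607259) had 116.6, 126.7, 132.9 and 122.3 CPM in PS19 mice and 133.8, 132.2, 131.2 and 130.2 CPM in Adrb1+/m;PS19 mice. The 4 Adrb1+/m;PS19 mice lay close together and above 3 of the 4 PS19 mice, with m665 overlapping them. The log2 fold change was 0.08 ± 0.0521 (SE; unadjusted p = 0.143). Pde4d (chromosome 13, 108449948 to 109953461) had 44.2 ± 3.74 and 46.0 ± 1.86 CPM (SD, n = 4 each), between 41.0 and 49.5 over the 8 mice, and a log2 fold change of 0.06 ± 0.0689 (SE; unadjusted p = 0.418). The intervals reached from -0.03 to 0.19 for Pde4b and from -0.09 to 0.21 for Pde4d.

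Pde8b, a cyclic AMP-specific enzyme of high affinity (chromosome 13, 95024454 to 95250336), had 92.2, 104.6, 97.3 and 95.7 CPM in PS19 mice and 106.2, 104.7, 102.7 and 104.2 CPM in Adrb1+/m;PS19 mice. Mouse m668 alone of the PS19 mice reached the range of the Adrb1+/m;PS19 mice. The log2 fold change was 0.10 ± 0.0528 (SE; unadjusted p = 0.0794). Pde1a, the other calmodulin-dependent enzyme of the list (chromosome 2, 79834453 to 80129458), had 235.9, 217.1, 245.8 and 225.7 CPM and 203.5, 237.4, 229.7 and 203.7 CPM, and overlapped between the genotypes with a log2 fold change of -0.08 ± 0.0627 (SE; unadjusted p = 0.220). Pde2a (chromosome 7, 101421691 to 101512827) had 5.85 to 8.49 CPM in PS19 mice and 5.32 to 9.18 CPM in Adrb1+/m;PS19 mice, with a log2 fold change of -0.09 ± 0.183 (SE; unadjusted p = 0.639), and its sign turned to 0.02 without mouse m660.

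The spread of each gene was compared with that of all genes tested, by the SD of log2 CPM over the 8 mice. It was 0.385 for Pde10a, which is percentile 83.9 of all genes, 0.323 for Pde1b (percentile 78.4), 0.284 for Pde2a (percentile 74.1) and 0.219 for Pde7b (percentile 65.0). It was 0.0694 for Pde4b (percentile 12.3), 0.0749 for Pde8b (percentile 15.2) and 0.0786 for Pde4a (percentile 17.1). From the lowest to the highest mouse Pde10a differed 1.94-fold and Pde1b 1.76-fold, whereas Pde4b and Pde8b each differed 1.15-fold. Pde2a had 95 to 158 counts in a mouse, the fewest of the 9 genes. The genes tested include many with few counts, whose SD holds more sampling noise. Each percentile therefore also depends on how well a gene was counted.

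Levels of the markers of striatal projection neurons differed between mice of the same genotype. All 14 genes of that list, among them the dopamine receptor genes Drd1 and Drd2 and the neuropeptide genes Penk and Tac1, had a positive log2 fold change, with a median of 0.30, and 2 of them, Tac1 and Gnal, were called higher. Every marker but Rarb was highest in PS19 mouse m668 and Adrb1+/m;PS19 mice m671 and m658, so the 14 signs are not separate observations. None was at 0 in any mouse, and the summed level was 1104 to 2160 CPM in PS19 mice and 1177 to 2401 CPM in Adrb1+/m;PS19 mice, so the groups overlapped. Of the 10 markers of cortical excitatory neurons, 8 had a negative log2 fold change, with a median of -0.14, and 3 (Slc17a7, Tbr1 and Neurod6) were called lower and 1 (Cux1) higher. Over all genes tested, 1.42% were called higher and 1.37% lower. In bulk tissue, more cells of a type and more RNA per cell cannot be told apart.

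A striatal score was taken for each mouse by centring the log2 CPM of each of the 14 markers on its own mean and averaging over the markers, with none of the phosphodiesterases in it. It was -0.53, 0.48, -0.05 and -0.51 in PS19 mice m677, m668, m665 and m659, and 0.63, -0.48, 0.06 and 0.40 in Adrb1+/m;PS19 mice m671, m661, m660 and m658. Thus 3 mice were low, 2 near the middle and 3 high, and each genotype held mice of all 3 kinds, 1 of the high mice being PS19 and 2 Adrb1+/m;PS19. The unequal spacing of the 8 scores bears on every correlation below.

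Pde1b followed the score with Pearson's r = 0.996 over 8 mice (2-sided exact permutation p = 2.48e-05, the smallest that 8 mice can give, adjusted p = 0.000446 over 18 relations) and Spearman's rho = 1.0 (exact permutation p = 4.96e-05). Its 8 mice stood in the same order as their scores. Pde10a gave r = 0.995 (exact permutation p = 7.44e-05, adjusted p = 0.00067) and rho = 0.976 (p = 0.000397), and Pde7b gave r = 0.923 (exact permutation p = 0.00171, adjusted p = 0.0103) and rho = 0.952 (p = 0.00114). Without mice m671 and m677, whose scores were farthest from the median, r was 0.995 for Pde1b, 0.993 for Pde10a and 0.895 for Pde7b. For a difference of 1 in the score, log2 CPM differed by 0.81 ± 0.0314 (SE) for Pde10a, 0.68 ± 0.0246 for Pde1b and 0.42 ± 0.0723 for Pde7b. Leaving out m671 took Pde7b to r = 0.891 (exact permutation p = 0.00933, adjusted p = 0.056), which no longer passed, whereas Pde1b and Pde10a passed with any 1 mouse left out. All 3 slopes were below 1, the slope that the mean of the markers has by construction. Single markers can lie above or below 1, and their slopes were not taken, so this does not set the 3 genes apart from them.

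With all 8 mice, the other 6 genes did not pass the threshold after adjustment over the 18 relations. Pde8b had r = 0.713 and rho = 0.762 (exact permutation p = 0.0496 and 0.0368, adjusted p = 0.149 and 0.165), with r = 0.514 without the 2 mice. It rested on single mice, since r was 0.953 (exact permutation p = 0.000198, adjusted p = 0.00119) without m661 and 0.623 (p = 0.131, adjusted p = 0.263) without m677. Pde1a went the other way, with r = -0.754 and rho = -0.69 (exact permutation p = 0.0372 and 0.0694, adjusted p = 0.134 and 0.178) and r = -0.617 without them. Pde4b had r = 0.546, and Pde2a, Pde4a and Pde4d lay between 0.049 and 0.0709. Against the score of the cortical excitatory markers the highest r was that of Pde1a, 0.763 (exact permutation p = 0.0242, adjusted p = 0.109), and no gene passed after adjustment.

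**Figure D3:**
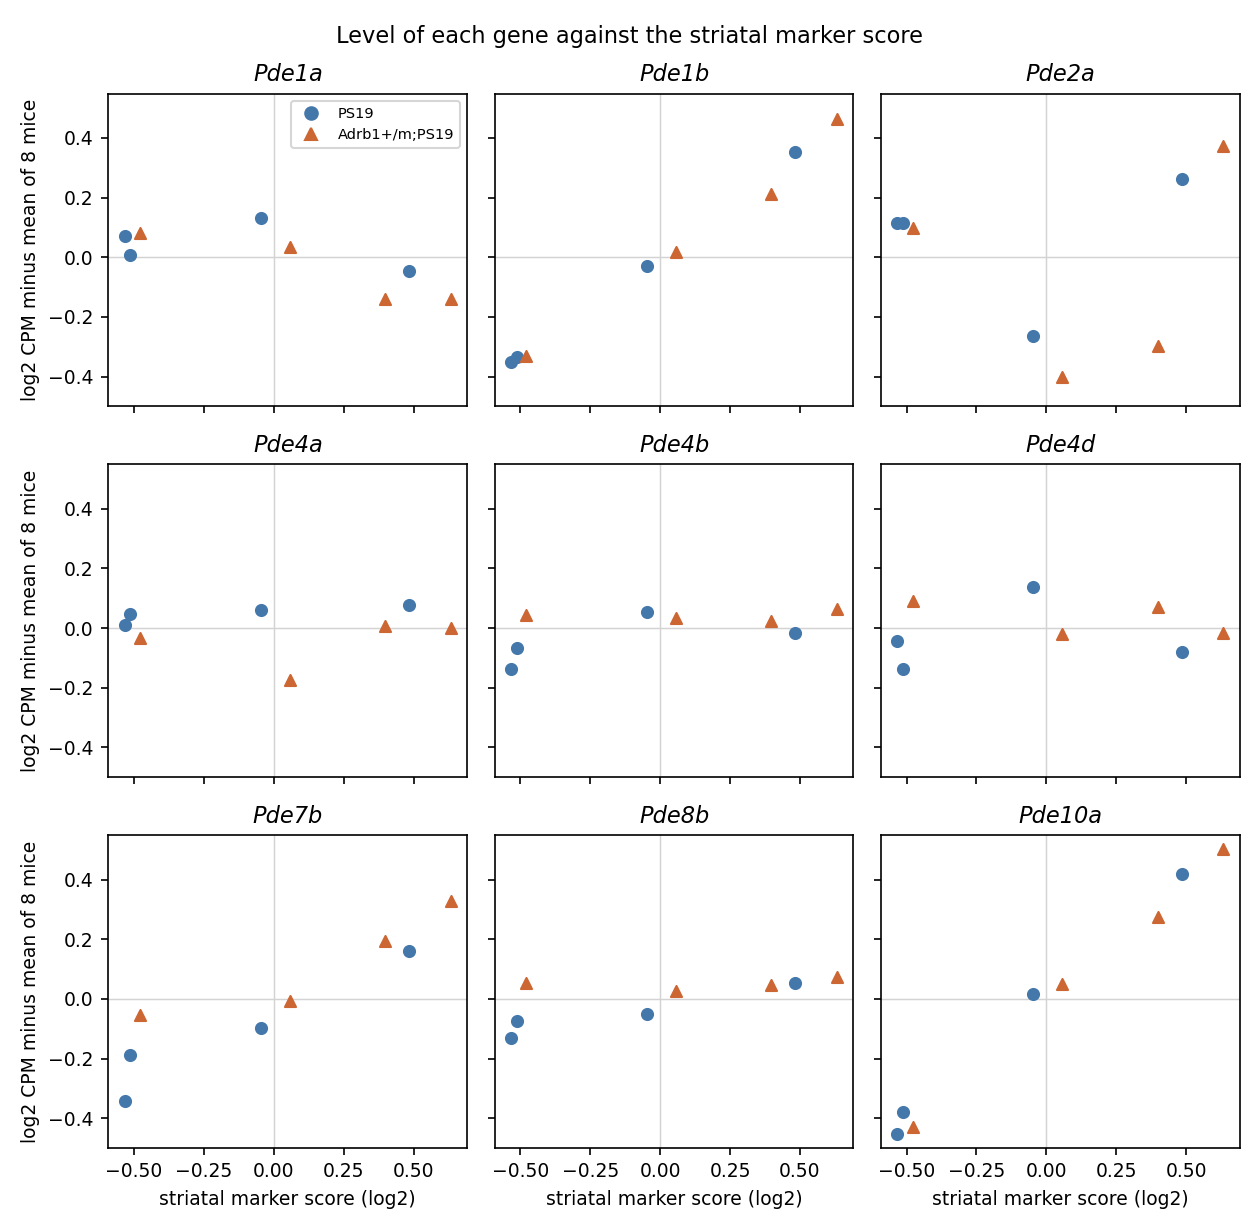
Log2 CPM of each gene minus its mean over the 8 mice (vertical axis) against the striatal marker score in log2 units (horizontal axis), 1 point per mouse, circles PS19 and triangles Adrb1+/m;PS19. Pde1b and Pde10a rise along a line that mice of both genotypes share, Pde7b rises less steeply, and the r of Pde4a and Pde4d are 0.049 and 0.0612.

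Because the score differed between mice, the genotypes were compared again with it as a covariate in the same edgeR model. The standard error of the log2 fold change fell from 0.192 to 0.0465 for Pde10a and from 0.163 to 0.047 for Pde1b, and the log2 fold changes became -0.05 (95% interval -0.15 to 0.05, unadjusted p = 0.266) and -0.03 (-0.13 to 0.07, unadjusted p = 0.556). Pde7b had 0.12 (-0.01 to 0.25, unadjusted p = 0.0769) and was no longer called, so that none of the 9 genes passed an unadjusted p of 0.05. With this covariate 624 of the 17195 genes tested were called in either direction, and 1.85% were called higher. For Pde4a, Pde4b, Pde4d and Pde8b the estimates were -0.11, 0.07, 0.06 and 0.08, each within 0.03 of the value without the covariate. Pde1a went from -0.08 to -0.04 (unadjusted p = 0.512) and Pde2a from -0.09 to -0.12 (unadjusted p = 0.548). The score was measured in the same libraries and is itself an outcome, so this comparison is of mice with equal marker level and not an estimate of the whole effect of the allele.

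**Figure D4:**
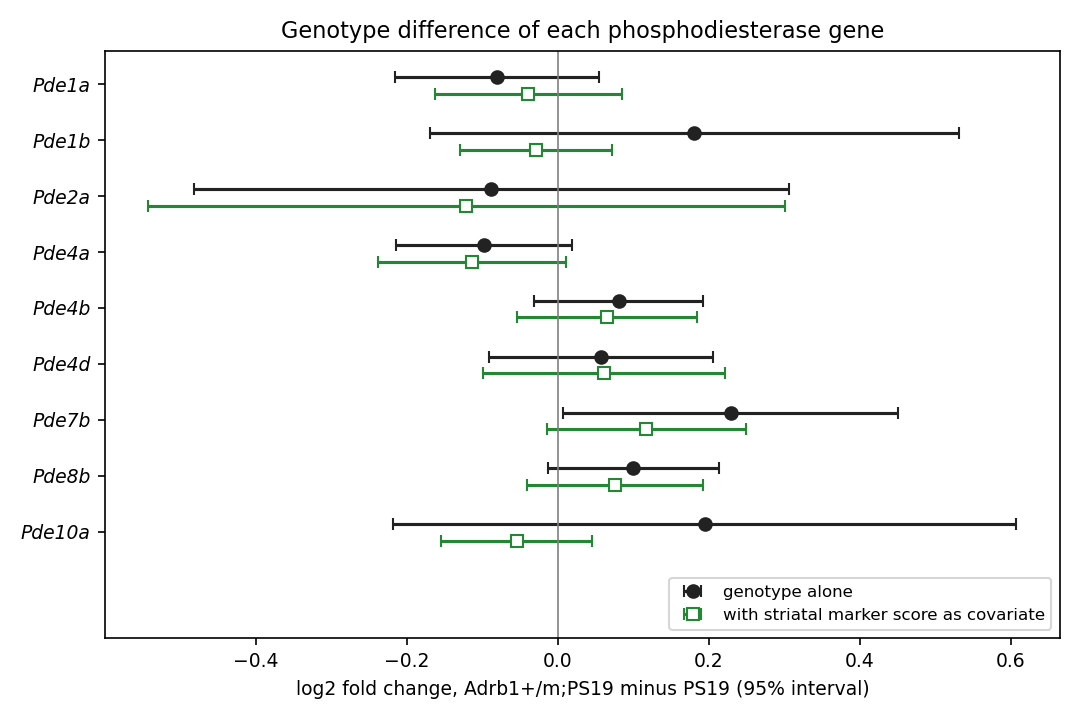
Log2 fold change of each gene, Adrb1+/m;PS19 minus PS19, with its 95% interval from edgeR, for the genotype alone (filled circles) and with the striatal marker score as a covariate (open squares). The intervals of Pde1b and Pde10a shrink and their values move to -0.03 and -0.05, whereas those of the Pde4 genes stay almost the same.

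Among the 36 pairs of the 9 genes, 4 passed an adjusted p of 0.05 for Pearson's r. Pde1b and Pde10a had r = 0.996 over 8 mice (exact permutation p = 4.96e-05, adjusted p = 0.00179) and rho = 0.976, and r was 0.996 without the 2 mice farthest from the median. Pde7b was paired with Pde1b (r = 0.915, exact permutation p = 0.00248, adjusted p = 0.0298), with Pde10a (r = 0.902, p = 0.0036, adjusted p = 0.0324) and with Pde8b (r = 0.892, p = 0.00241, adjusted p = 0.0298). Pde1b, Pde10a and Pde7b also passed with the striatal score over the same 8 mice, so the pairs among them are not separate from that result. By rho, only the pairs of Pde1b with Pde10a and with Pde7b passed (adjusted p = 0.0143 and 0.0205). Pde4a, Pde4b and Pde4d, which belong to 1 subfamily, gave no pair past the threshold, with r of -0.26 for Pde4a and Pde4b, -0.08 for Pde4a and Pde4d and 0.613 for Pde4b and Pde4d (exact permutation p = 0.511, 0.863 and 0.108).

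The ratio of CPM of Pde10a to Pde1b lay between 1.06 and 1.19 over the 8 mice, although Pde10a differed 1.94-fold and Pde1b 1.76-fold between mice. The ratio of Pde10a to Pde1a, in contrast, went from 1.11 in mouse m677 to 2.48 in mouse m671. As a share of the summed CPM per kb of the 19 phosphodiesterase genes that passed the count filter, Pde1b and Pde10a together made up between 34.3% (m661) and 48.2% (m671). The share was 38.9 ± 5.83% in PS19 and 41.9 ± 5.94% in Adrb1+/m;PS19 mice (SD, n = 4 each; 2-sided exact permutation p = 0.486, where the smallest possible is 0.0286). Pde1a made up 13.6% to 20.4%, and the 9 genes together 81.2% to 86.1%. The sum behind these shares includes Pde6d, the carrier of prenylated proteins, and Pde2a, whose level is uncertain. If reads of Pde2a were left uncounted, the shares of Pde1b, Pde10a and Pde1a are too high.

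For each of the 9 genes, the 3 genes most like it by Pearson's r of log2 CPM over the 8 mice were taken among 12134 tested genes with a mean of at least 5 CPM. With so many candidates and 8 mice, every one of the 9 genes finds partners above r = 0.95, so these are a description. Pde10a was most like Adora2a (r = 0.998), an adenosine receptor gene, then Pde1b and Rasd2 (r = 0.993). Pde1b was most like Pde10a, Ppp1r1b (r = 0.995), which encodes DARPP-32, a target of protein kinase A, and Adora2a (r = 0.993). Adora2a, Ppp1r1b and Rasd2 are in the striatal list. Pde7b was most like Asic4 (r = 0.979), Cdk17 (r = 0.977) and Tac1 (r = 0.965), of which only Tac1 is in that list.

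No other partner belonged to the striatal list. They were Usp46, Copg2 and Foxp2 for Pde8b, Nectin4 and Tcf4 for Pde1a, Bex2, Amacr and St6galnac6 for Pde2a, Strn4, Pitpnm3 and Dusp4 for Pde4a, Rbm15, D1Ertd622e and Rprd1b for Pde4b, and Zfp169, Nat8f1 and Smim14 for Pde4d. Their r lay between 0.952 (Smim14) and 0.979 (Usp46).

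The remaining phosphodiesterase genes were read from the same fit. Of 15 listed, 10 passed the count filter, and Pde6a, Pde6b, Pde6c, Pde6g and Pde6h, known from photoreceptors, did not, with at most 11 counts in any mouse. The log2 fold changes of the 10 had a median of 0.02, against 0.0005 over all genes. Of the 10, 1 gene was called higher and 0 lower, where 1.42% and 1.37% of all genes tested were. The gene called was Pde3a, an enzyme that cyclic GMP inhibits (chromosome 6, 141249269 to 141507448). It had 5.33, 4.97, 5.29 and 4.58 CPM in PS19 mice and 6.06, 5.70, 6.21 and 9.11 CPM in Adrb1+/m;PS19 mice. The groups did not overlap, as was so for 2.02% of all genes tested, and mouse m658 stood above the other 3 of its group. The log2 fold change was 0.42 ± 0.169 (SE; edgeR unadjusted p = 0.0260, adjusted p = 0.9996), and 0.25 (unadjusted p = 0.126) without mouse m658 and 0.38 (unadjusted p = 0.0649) without mouse m659.

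The other 9 genes overlapped between the genotypes and were not called. Their log2 fold changes were 0.14 for Pde1c, 0.05 for Pde3b, -0.13 for Pde4c, -0.01 for Pde5a, 0.04 for Pde6d, -0.07 for Pde7a, 0.06 for Pde8a, -0.03 for Pde9a and 0.01 for Pde11a, with standard errors of 0.0798 to 0.198. Per length, Pde6d, which encodes a carrier of prenylated proteins, reached 13.7 CPM per kb, in the range of Pde4a. The paralogs of the genes described here within the same subfamily, Pde1c, Pde4c, Pde7a and Pde8a, had 0.846, 0.532, 3.75 and 7.10 CPM per kb.

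The other genes of the pathway were counted from the same fit. Over all genes tested, the median log2 fold change was 0.0005, with 1.42% called higher and 1.37% lower. Of 17 genes for cyclic nucleotide synthesis, 16 were tested, their log2 fold changes having a median of -0.01, and Adcy3 alone was called, as lower. Adcy3, an adenylyl cyclase, had 49.3, 57.2, 49.7 and 49.4 CPM in PS19 mice and 48.9, 44.6, 45.6 and 46.8 CPM in Adrb1+/m;PS19 mice, groups that did not overlap, as in 2.02% of all genes tested. Its log2 fold change was -0.14 ± 0.0652 (SE; edgeR unadjusted p = 0.0445, adjusted p = 0.9996), DESeq2 gave unadjusted p = 0.0553, and it was -0.09 (unadjusted p = 0.168) without mouse m668. The call was also lost without m661 (unadjusted p = 0.107), m660 (unadjusted p = 0.094) or m658 (unadjusted p = 0.0662), and with the striatal score as a covariate the value was -0.19 (unadjusted p = 0.00742). Of 23 genes for cyclic nucleotide effectors, such as protein kinase A subunits and HCN channels, 18 were tested with a median of -0.03 and 0 were called. Of 12 regulators and partners of phosphodiesterases, such as calmodulin, A-kinase anchoring protein and arrestin genes, 12 were tested with a median of 0.00 and 0 were called.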

How the data were processed

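Cortical RNA from 4 PS19 and 4 Adrb1+/m;PS19 mice was measured by RNA-seq (paired reads of 150 nt). Per the methods and the submitters' processing notes, the authors aligned reads to GRCm38 with HISAT2 2.0.5 and deposited raw counts per Ensembl gene made with featureCounts 1.5.0-p3. Its settings for strand and multiple mapping are not given in the sources used here, so counts of overlapping genes are uncertain. The deposited gene length was used for values per kb.

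From these counts, filterByExpr and TMM factors were applied and the genotypes compared with edgeR 4.0.16 (quasi-likelihood, 2-sided, no covariates, in R 4.3.3). P-values were adjusted by Benjamini-Hochberg over the 17195 genes. "Called" means an unadjusted p under 0.05, the threshold of the study. Log2 CPM used a prior count of 2. Correlations used 2-sided exact permutation tests over mice (scipy 1.17.1). The code was tested on simulated counts. Named genes were the 9 described, the other phosphodiesterase genes tested, pathway genes called, and for each of the 9 the 3 genes most alike, of which 1 is not reported here; markers were named within their lists. The genes, lists and tests were chosen with earlier results of these data known. Counts are limited by depth, 14653222 to 21223754 per mouse, which bears most on Pde2a, Pde3a, Pde4c and Pde11a. The counts of Pde2a may also lack reads that fall in Gm45837, so its level, spread and fold change are uncertain. Alternatives were DESeq2 1.42.0, limma-voom (limma 3.58.1), DESeq2 size factors, 2 other count filters, protein-coding genes alone, 1 surrogate variable (sva 3.50.0), the striatal score as a covariate, and each mouse left out in turn. Other marker lists were also read from the fit. Cortical interneuron markers had 2 of 8 called higher (Gad2 and Slc32a1) and 2 lower (Vip and Npy), and hippocampal markers 1 of 6 higher (Zbtb20). Of all genes tested, 1.42% were called higher and 1.37% lower. None of 7 astrocyte, 7 microglia, 7 oligodendrocyte and 6 endothelial and pericyte markers was called. Promoter sequences are from RefSeq (GRCm38.p6) and gene overlaps from GENCODE M21. Protein sequences were not used here.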

Additional observations from a re-analysis of the deposited data

Results flagged for a closer look

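Within a genotype, the highest and the lowest of 4 mice were compared with the nearest of the other mice, as the gap divided by the range of the group, against Dixon's 95% critical value. Of 44 groups (22 genes in 2 genotypes), 3 passed it, and chance passes about 1 in 20. None of them belonged to the 9 phosphodiesterases described above. Pde3a had 9.11 CPM in Adrb1+/m;PS19 mouse m658, with a gap of 0.849 of the range, and this mouse accounted for much of the genotype difference, which was 0.25 without it and 0.42 with it on the log2 scale. Adcy3 had 57.22 CPM in PS19 mouse m668, with a gap of 0.955 of the range, and its log2 fold change was -0.09 without that mouse and -0.14 with it. Pde11a had 4.84 CPM in PS19 mouse m677, with a gap of 0.976 of a narrow range.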

How the results depend on the processing

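No paired analysis was possible because no number, litter or date in the labels links mice of the 2 genotypes, although the study states that controls were littermates. With the striatal score as a covariate, the log2 fold changes of Pde1b and Pde10a turned to -0.028 and -0.054, and that of Pde7b was 0.12 and no longer called. Under this model 0 of the 9 genes and 0 of the other phosphodiesterase genes were called higher, where 1.85% of all genes were. With no count filter beyond 1 count, where edgeR called 1366 genes, Pde1b at 0.18 and Pde10a at 0.20 were called too, which made 3 genes higher where 2.22% of all genes were, and 0 of the 9 had genotypes that did not overlap. That setting also called 1 other phosphodiesterase gene lower and, of the synthesis genes, 1 higher and 2 lower, of which 1 passed an adjusted p of 0.05. Of the 33614 genes tested there, 66 passed it. DESeq2 called 1 other phosphodiesterase gene and 0 synthesis genes lower, and 1 surrogate variable gave 3 synthesis genes lower. In either direction DESeq2 called 555 of 33611 genes, and the fit with 1 surrogate variable called 612 of 17195. With limma-voom, Pde11a was at -0.012. The causes of these changes were not tested.

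With each mouse left out in turn, log2 fold changes lay between -0.12 and -0.049 for Pde1a, -0.12 and -0.057 for Pde4a, 0.052 and 0.11 for Pde4b, 0.022 and 0.12 for Pde4d, 0.045 and 0.35 for Pde1b, -0.25 and 0.020 for Pde2a, 0.15 and 0.33 for Pde7b, 0.076 and 0.14 for Pde8b, and 0.050 and 0.39 for Pde10a. The number of the 9 genes called higher lay between 0 and 4, with 4 without m668, where between 1.21% and 1.93% of all genes were, and the number whose genotypes did not overlap between 1 and 3, with 3 without m668 (Pde4a, Pde7b and Pde8b) or m665 (Pde4a, Pde4b and Pde4d), where between 3.69% and 5.02% of all genes did not overlap. Of the 9 genes, between 2 (without m671) and 4 (without m661) passed the threshold for a positive correlation with the striatal score. Of the other phosphodiesterase genes 0 to 1 was called higher, of the synthesis genes 0 to 1 higher and 0 to 2 lower, and of the effectors and the regulators 0 to 1 lower each. Log2 fold changes that took both signs were those of Pde3b (-0.040 to 0.12), Pde4c (-0.21 to 0.015), Pde5a (-0.053 to 0.070), Pde6d (-0.025 to 0.073), Pde7a (-0.14 to 0.012), Pde8a (-0.045 to 0.14), Pde9a (-0.14 to 0.086) and Pde11a (-0.16 to 0.13). Correlations with the striatal score that took both signs were those of Pde2a (r from -0.303 to 0.252), Pde4a (-0.132 to 0.202) and Pde4d (-0.275 to 0.265), and with the cortical score those of Pde2a (-0.148 to 0.524) and Pde4d (-0.482 to 0.326). None of the 9 genes had an adjusted p under 0.05 in any of these settings. Directions of Pde1a, Pde4a, Pde4b, Pde4d, Pde7b and Pde8b were the same in every setting, those of Pde1b and Pde10a in every setting but the covariate.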

Other observations

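In both genotypes, the 2 mice with more Gfap, the astrocyte filament gene, had less Pde4b than the other 2. This was noticed after the values were seen and was not tested, and Gfap was picked from 7 astrocyte markers. Not all of the 7 split the mice in this way, since Aldh1l1 was higher in m671 and m661 than in m660 and m658. Among PS19 mice, m677 and m659 had the higher Gfap, 748.4 and 826.7 CPM, and the lower Pde4b, 116.6 and 122.3 CPM, whereas m668 and m665 had 256.6 and 219.6 CPM of Gfap and 126.7 and 132.9 CPM of Pde4b. Among Adrb1+/m;PS19 mice, m660 and m658 had 837.9 and 752.0 CPM of Gfap and 131.2 and 130.2 CPM of Pde4b, next to 353.6 and 181.7 CPM of Gfap and 133.8 and 132.2 CPM of Pde4b in m671 and m661. The gap between the higher and lower Pde4b mice was small in the second genotype, where all 4 values lay between 130.2 and 133.8 CPM.

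Adcy5, the main adenylyl cyclase of striatal projection neurons, was not called and is named after its values were seen. It had 305.0, 519.2, 396.4 and 330.8 CPM in PS19 mice m677, m668, m665 and m659, and 540.1, 340.6, 418.5 and 512.4 CPM in Adrb1+/m;PS19 mice m671, m661, m660 and m658. The mice with high Pde10a and Pde1b, m671, m668 and m658, were also those with high Adcy5, and its log2 fold change was 0.22 with a standard error of 0.157 (edgeR unadjusted p = 0.178).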
